A study of Mus musculus with 18 samples.

Results

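The 40 genes described here carry out or mark DNA replication and mitosis, and they were followed in the cerebral cortex of mice from birth to 30 days of age. They were chosen by name from the 28852 genes of the deposited expression table, and all 40 were found. By role they comprise 10 genes of origin licensing and the replicative helicase, 6 of DNA synthesis, 7 cyclins and entry regulators, 9 of spindle and kinetochore, 6 of the checkpoint, passenger complex and mitotic exit, and 2 general markers of cycling cells. RNA was sequenced from cortex at postnatal days 1, 7 and 30, from mice whose labels read Alg13 knockout or wild type, and each of the 6 groups holds 3 libraries. Alg13 encodes a subunit of an enzyme of protein N-glycosylation, and the series asked how its loss bears on cortical interneurons. The sources used here do not give the strain, the sex, the kind of Alg13 allele or whether libraries came from separate animals. The p-values therefore rest on the spread among these libraries, and that spread may be technical.

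A cell that is to divide first loads the MCM helicase onto replication origins, then copies its DNA with polymerases and freshly made deoxynucleotides, and then builds a spindle that parts the chromosomes. Most of these genes are transcribed mainly in cycling cells, the replication genes through E2F factors and the mitotic genes later, through the DREAM complex, MYB and FOXM1. In the rodent cortex most excitatory neurons are made before birth, while glial precursors, vascular cells and microglia go on dividing in the first weeks after it.

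Values are FPKM, fragments scaled to transcript length and library total, so levels of different genes can be set side by side. Total FPKM per library ran from 313919 to 394975 and relative depth from 0.904 to 1.20; absolute depth is unknown. Alg13 itself did not separate the libraries labelled knockout from wild type, so its level did not check the labels. It spanned 1.93 to 3.27 FPKM in wild type and 1.04 to 2.57 in knockout at day 1, 1.53 to 1.94 and 1.93 to 2.78 at day 7, and 0.833 to 1.21 and 1.19 to 1.82 at day 30, and the genotypes overlapped on each day. The sources used here do not give which bases the allele changes. A value for the whole gene does not show whether part of it is missing. Cortical excitatory neuron markers summed to 353 to 656 FPKM across the libraries. Wild type day 1 replicate 3 stood apart, with salivary gland markers summing to 35774 FPKM (at most 14.7 elsewhere) and brown fat markers to 1901 FPKM (at most 2.93 elsewhere).

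Transcripts of the replication and mitosis genes fell steeply with age in both genotypes. In wild type, 37 of the 39 members tested were lower at day 30 than at day 1, against 41.2% of all genes tested (limma, adjusted p under 0.05). Their median log2 change was -1.71, and that of all genes was -0.19. In knockout libraries 36 of 39 were lower, against 39.8%, with a median of -1.45 beside -0.15 for all genes. The counts and medians against day 1 include 8 members, named below, that entered the test through their day 1 levels. For these a fall from day 1 is partly set by the filter. More members passed without any day 30 library, and their fall to day 30 is partly set by it too. Log2 changes are on the scale of log2(FPKM + 1), so that changes at low FPKM are understated. With 0.1 added in place of 1 the medians were -3.10 and -2.55. In whole tissue, fewer cycling cells and less of these RNAs per cell cannot be told apart.

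The fall was spread over both intervals. From day 1 to day 7 in wild type, 36 of 39 were lower, against 28.0% of all genes, with a median of -0.80. From day 7 to day 30, 37 of 39 were lower, against 29.6%, with a median of -0.88, or -2.11 with 0.1 added to the FPKM. The knockout libraries gave 35 of 39 against 29.4% for the earlier interval and 34 of 39 against 22.0% for the later one. Their medians were -0.70 and -0.69, the later one -1.59 with 0.1 added. The comparisons that share day 1 or day 7 libraries are not independent of each other. Most members lay under 1 FPKM in every day 30 library, as counted below, and those tested passed the filter through earlier days alone. For these a fall to day 30, from day 7 as from day 1, is partly set by the filter.

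By day 30, 28 of the 40 members lay under 1 FPKM in all 6 libraries and 8 lay at or above it in all 6. At day 1, 34 of 40 were at or above 1 FPKM in all 6 libraries, and at day 7, 27 were. To be tested, a gene had to reach 1 FPKM in 3 or more of the 18 libraries. Cdc6, which brings the MCM helicase to origins, did not reach it and was not tested. Its highest value was 0.600 FPKM at day 1. Of the 39 tested, Cdc45, Pole, Tyms, Cenpe, Cenpf, Bub1, Aurkb and Birc5 passed through their day 1 levels: on the day 7 and day 30 libraries alone these 8 would not have entered, so for them a fall with age is partly set by the filter.

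**Figure D1:**
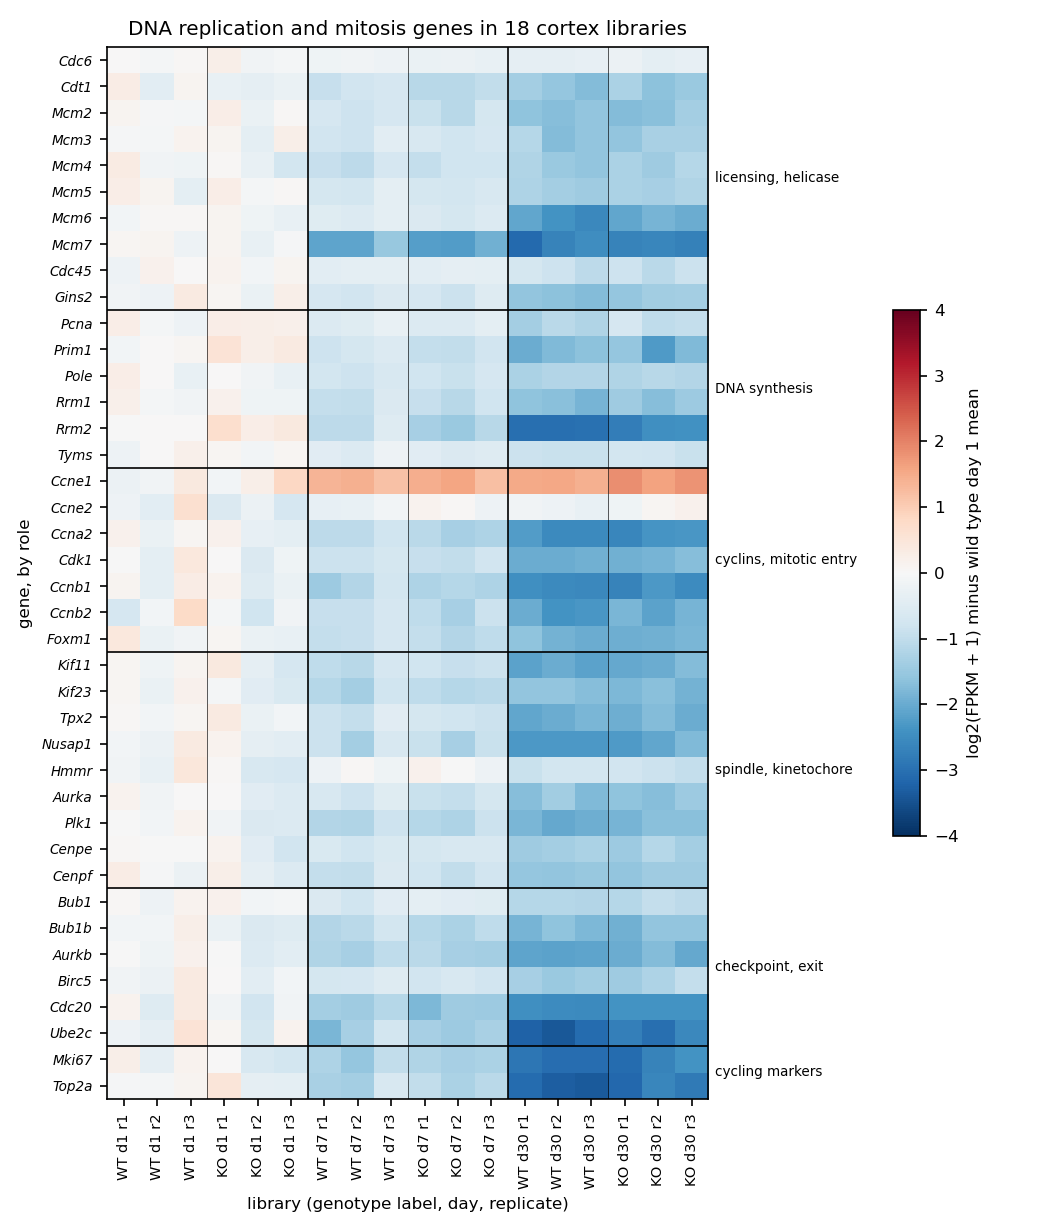
Level of each of the 40 members (rows, grouped by role) in each of the 18 libraries (columns, by day, genotype label and replicate), as log2(FPKM + 1) minus the wild type day 1 mean of that gene, with red above and blue below that mean. The columns turn blue from day 1 to day 30 for nearly all genes in both genotypes, and the Ccne1 row turns red.

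The markers of cycling cells showed the size of the decline. Mki67 encodes the Ki-67 protein that coats mitotic chromosomes. In wild type it measured 9.62, 5.94 and 8.83 FPKM at day 1, 2.80, 2.06 and 3.50 at day 7 and 0.222, 0.0972 and 0.0901 at day 30. In knockout libraries it measured 8.09, 4.77 and 4.38 FPKM at day 1, 2.90, 2.59 and 2.75 at day 7 and 0.0738, 0.413 and 0.719 at day 30. The 3 days did not overlap in either genotype. The change from day 1 to day 30 was -2.98 ± 0.22 (SE), adjusted p = 5.93e-09 in wild type, and -2.25 ± 0.22 (SE), adjusted p = 1.61e-07 in knockout (limma).

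Top2a encodes the topoisomerase that untangles sister DNA. Its wild type values were 9.76, 9.36 and 11.0 FPKM at day 1, 3.49, 3.30 and 6.14 at day 7 and 0.297, 0.125 and 0.0849 at day 30. Its knockout values were 14.3, 7.62 and 7.33 FPKM at day 1, 4.52, 3.58 and 4.20 at day 7 and 0.257, 0.795 and 0.552 at day 30. The days again stayed apart in both genotypes, and the day 30 values kept 1.68% of the day 1 mean in wild type and 5.49% in knockout. On the log2(FPKM + 1) scale Top2a had the most negative change of all members in wild type from day 1 to day 30, -3.24 ± 0.22 (SE), adjusted p = 3.40e-09 (limma), while Bub1, Aurkb, Cdk1 and Ube2c kept smaller shares of day 1.

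The licensing and helicase genes load and fire origins. Their day 30 mean was a median of 16.6% of the day 1 mean in wild type, from 8.93% (Gins2, part of the GINS complex that activates the helicase) to 28.4% (Mcm4, a helicase subunit). In knockout libraries the median was 19.4%, from 13.0% (Mcm7) to 41.9% (Mcm4). All 9 tested genes fell from day 1 to day 30 in both genotypes. Cdt1, which loads the helicase with Cdc6, measured 3.00 ± 0.955 FPKM at day 1 and 0.348 ± 0.182 at day 30 in wild type (SD, n = 3). Mcm5 measured 5.48 ± 1.45 and 1.52 ± 0.167 FPKM, and Gins2 3.00 ± 0.886 and 0.268 ± 0.0676 FPKM.

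The helicase subunits Mcm7 and Mcm6 are given by day. Mcm7 measured 26.4, 27.1 and 21.8 FPKM at day 1, 5.05, 5.01 and 8.16 at day 7 and 2.04, 3.06 and 3.63 at day 30 in wild type. It lost most of its level before day 7, where it kept 24.2% of day 1, and its change over the whole span was -2.76 ± 0.18 (SE), adjusted p = 1.90e-09 (limma). Mcm6 measured 8.90, 9.93 and 10.01 FPKM at day 1, 6.52, 6.31 and 7.16 at day 7 and 1.52, 1.04 and 0.757 at day 30 in wild type. It kept 69.3% at day 7 and lost most afterwards, with 16.6% of the day 7 level at day 30. Its changes were -0.47 ± 0.14 (SE), adjusted p = 0.00891 for the earlier interval and -1.88 ± 0.14 (SE), adjusted p = 2.22e-08 for the later one (limma). Mcm2 to Mcm7 form 1 ring in equal numbers, yet at day 1 their wild type means ran from 4.14 FPKM (Mcm3) to 25.1 FPKM (Mcm7). At day 30 they ran from 0.756 FPKM (Mcm2) to 2.91 FPKM (Mcm7). Whether the time courses of Mcm6 and Mcm7 differ was not tested. Cdc45, the helicase cofactor, changed by -0.86 ± 0.12 (SE), adjusted p = 1.38e-05 (limma) and kept 23.7% of a day 1 mean of 1.43 FPKM. Cdc45 entered the test through its day 1 level, so its fall is partly set by the filter.

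The DNA synthesis genes kept a median of 18.1% in wild type and 18.1% in knockout, and all 6 fell from day 1 to day 30 in both. Pcna, the sliding clamp that holds polymerases on DNA and that also serves DNA repair, was the most abundant member in every library. It measured 68.7, 53.4 and 49.0 FPKM at day 1, 38.3, 39.7 and 45.8 at day 7 and 21.2, 26.3 and 23.7 at day 30 in wild type. Knockout values were 68.1, 66.8 and 64.7 FPKM at day 1, 38.1, 38.4 and 43.0 at day 7 and 35.3, 27.6 and 28.7 at day 30. It kept 41.6% of its day 1 level at day 30 in wild type, the largest share of the 38 members other than Ccne1 and Ccne2.

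Rrm2, the cell cycle regulated subunit of ribonucleotide reductase, which makes deoxynucleotides, lay at the other end of the group. Wild type values were 11.8, 12.1 and 12.3 FPKM at day 1, 5.26, 5.29 and 8.12 at day 7 and 0.618, 0.601 and 0.643 at day 30. Knockout values were 19.9, 14.6 and 16.0 FPKM at day 1, 4.19, 3.67 and 5.10 at day 7 and 0.905, 1.404 and 1.45 at day 30. Its change from day 1 to day 30 was -3.01 ± 0.16 (SE), adjusted p = 1.75e-10 in wild type and -2.98 ± 0.16 (SE), adjusted p = 3.10e-10 in knockout (limma). Rrm1, the larger subunit of the same enzyme, kept 25.2% in wild type where Rrm2 kept 5.14%. Prim1, the primase that starts each new strand, changed by -1.79 ± 0.16 (SE), adjusted p = 6.37e-08 in wild type (limma). Pole, the leading strand polymerase, fell from 1.76 ± 0.524 FPKM to 0.187 ± 0.0361 FPKM (SD, n = 3). Tyms, which makes thymidylate, changed by -0.88 ± 0.12 (SE), adjusted p = 7.01e-06 (limma) and kept 13.7% of a day 1 mean of 1.15 FPKM. Pole and Tyms entered the test through their day 1 levels, so their fall is partly set by the filter.

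The mitotic genes declined further in proportion than the replication genes, as a description of these means and with no test between the groups. The spindle and kinetochore genes kept a median of 8.53% in wild type and 11.4% in knockout at day 30. The checkpoint, passenger and exit genes kept 3.51% and 8.55%, and the cyclins and entry regulators 7.08% and 9.78%. The summed FPKM of the 22 mitotic members went from 103 ± 20.8 at day 1 to 5.70 ± 0.545 at day 30 in wild type, and that of the 16 replication members from 160.0 ± 15.3 to 40.7 ± 1.98 (SD, n = 3). In knockout libraries the sums went from 83.9 ± 23.6 to 8.31 ± 1.89 and from 173 ± 16.4 to 50.4 ± 4.87. At these levels the shares rest on few fragments, since most of these genes were under 1 FPKM at day 30.

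Among the entry regulators, Ccnb1, the cyclin that with Cdk1 drives mitosis, measured 6.41, 4.16 and 7.33 FPKM at day 1, 1.48, 2.06 and 3.10 at day 7 and 0.239, 0.160 and 0.133 at day 30 in wild type. The 3 days did not overlap, and the change from day 1 to day 30 was -2.54 ± 0.20 (SE), adjusted p = 1.59e-08 (limma). Cdk1, its kinase partner, measured 2.99, 2.07 and 4.35 FPKM at day 1, 1.23, 1.23 and 1.50 at day 7 and 0.0238, 0.0196 and 0.0708 at day 30 in wild type and kept 1.21%. Foxm1, the transcription factor of mitotic genes, fell from 3.52 ± 1.18 to 0.249 ± 0.168 FPKM, and Ccnb2 from 5.56 ± 3.34 to 0.288 ± 0.199 FPKM (SD, n = 3). Ccna2, the cyclin of S and G2 phase, changed by -2.44 ± 0.16 (SE), adjusted p = 2.39e-09 (limma).

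Of the exit genes, Ube2c, the ubiquitin-conjugating enzyme of the anaphase-promoting complex, measured 8.37, 7.49 and 15.0 FPKM at day 1, 2.04, 3.31 and 5.55 at day 7 and 0.148, 0.0306 and 0.294 at day 30 in wild type. Its highest day 1 value was in wild type replicate 3, the library with salivary gland and brown fat transcripts. The change was -3.23 ± 0.28 (SE), adjusted p = 3.75e-08 from day 1 to day 30 (limma), and it was -2.61 ± 0.28 (SE), adjusted p = 4.67e-07 in knockout libraries, which hold no such sample. Cdc20, which activates the same complex, measured 7.72, 4.51 and 9.14 FPKM at day 1, 2.09, 1.92 and 2.56 at day 7 and 0.445, 0.383 and 0.345 at day 30 in wild type and changed by -2.50 ± 0.20 (SE), adjusted p = 1.65e-08 (limma). Aurkb and Birc5 (survivin), both of the chromosomal passenger complex, fell from 3.50 ± 0.546 to 0.0403 ± 0.0122 FPKM and from 2.05 ± 0.709 to 0.133 ± 0.0595 FPKM (SD, n = 3). Bub1, a spindle checkpoint kinase, changed by -1.16 ± 0.12 (SE), adjusted p = 4.09e-07 (limma) from a day 1 mean of 1.26 FPKM, and by -3.62 with 0.1 added in place of 1. It kept 0.767% of that mean at day 30, the smallest wild type share of the 40. It was also the single member listed at 0, in wild type day 30 replicate 3, and its other 2 values in that group were 0.0159 and 0.0131 FPKM. Bub1, Aurkb and Birc5 entered the test through their day 1 levels, so their fall is partly set by the filter.

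In the spindle group, Nusap1, which bundles spindle microtubules, changed by -2.30 ± 0.21 (SE), adjusted p = 8.72e-08 and Kif11, the motor that pushes the poles apart, by -2.08 ± 0.20 (SE), adjusted p = 1.57e-07 in wild type (limma). Plk1 and Aurka, kinases of spindle poles, fell from 4.02 ± 0.441 to 0.307 ± 0.108 FPKM and from 2.80 ± 0.393 to 0.239 ± 0.190 FPKM (SD, n = 3). The kinetochore proteins Cenpe and Cenpf fell from 2.04 ± 0.0605 to 0.193 ± 0.0630 FPKM and from 2.13 ± 0.570 to 0.0622 ± 0.0173 FPKM. Tpx2 and Kif23, of the spindle and midzone, kept 9.54% and 12.6%. Hmmr, a microtubule-binding spindle protein, measured 1.48, 1.20 and 2.72 FPKM at day 1, 1.38, 1.85 and 1.399 at day 7 and 0.462, 0.633 and 0.631 at day 30 in wild type. In knockout libraries it measured 1.83, 0.767 and 0.719 FPKM at day 1, 2.08, 1.68 and 1.38 at day 7 and 0.590, 0.493 and 0.404 at day 30. Day 1 and day 7 overlapped in both genotypes, and the change between them did not pass the test, at -0.11 ± 0.20 (SE), adjusted p = 0.682 in wild type and 0.40 ± 0.20 (SE), adjusted p = 0.109 in knockout (limma). Cenpe also overlapped between these days in knockout libraries and did not pass, at -0.30 ± 0.17 (SE), adjusted p = 0.154 (limma). Without wild type day 1 replicate 3 the Hmmr wild type value turned to 0.12. From day 7 to day 30 Hmmr fell in wild type, at -0.69 ± 0.20 (SE), adjusted p = 0.00847, and in knockout, at -0.85 ± 0.20 (SE), adjusted p = 0.00299 (limma). From day 1 to day 30 it fell in wild type, at -0.79 ± 0.20 (SE), adjusted p = 0.00205 (limma). In knockout that change did not pass, at -0.46 ± 0.20 (SE), adjusted p = 0.0526 (limma). Over 14 alternatives the adjusted p in knockout ran from 0.00818 to 0.311.

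**Figure D2:**
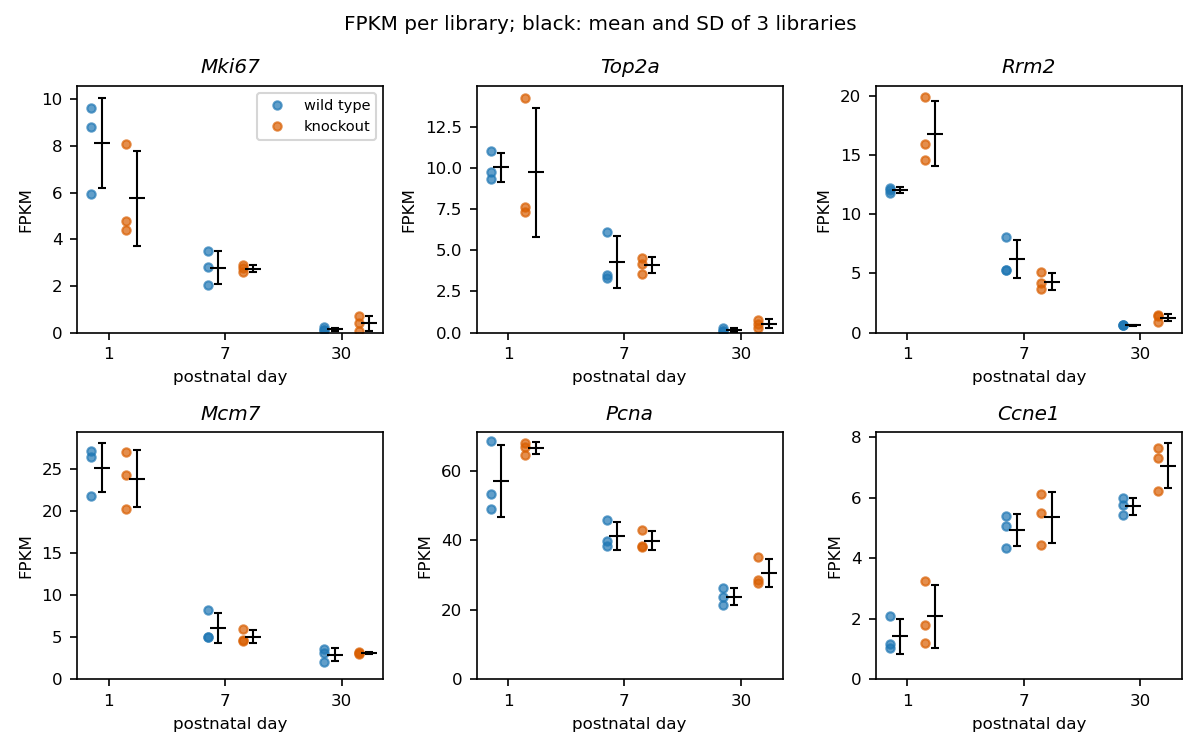
FPKM per library of Mki67, Top2a, Rrm2, Mcm7, Pcna and Ccne1 at postnatal days 1, 7 and 30, with 1 point per library, wild type in blue and knockout in orange, and the mean and SD of 3 libraries in black, on linear axes from 0. The first 5 genes step down at each day, Pcna by the smallest share, and Ccne1 steps up after day 1.

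Cyclins E1 and E2 (Ccne1, Ccne2), which bind Cdk2 to start S phase, did not follow the other members. Ccne1 was the 1 member called higher in wild type at day 7 and at day 30 against day 1, beside 20.9% and 26.4% of all genes. In knockout libraries 1 member was higher at day 7 and 2 at day 30, beside 19.3% and 26.6%. Ccne1 measured 1.02, 1.15 and 2.08 FPKM at day 1, 5.06, 5.39 and 4.35 at day 7 and 5.77, 5.98 and 5.42 at day 30 in wild type. In knockout libraries it measured 1.21, 1.79 and 3.23 FPKM at day 1, 5.48, 6.11 and 4.45 at day 7 and 7.65, 6.22 and 7.32 at day 30. The day 1 values lay below those of both later days in each genotype. Ccne1 rose by 1.32 ± 0.20 (SE), adjusted p = 7.12e-05 from day 1 to day 7 in wild type and by 1.09 ± 0.20 (SE), adjusted p = 0.000352 in knockout (limma). From day 7 to day 30 it did not pass the test, at 0.18 ± 0.20 (SE), adjusted p = 0.466 in wild type (limma).

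Ccne2 measured 1.70, 1.30 and 3.85 FPKM at day 1, 1.46, 1.53 and 1.86 at day 7 and 1.80, 1.69 and 1.53 at day 30 in wild type. In knockout libraries it measured 1.10, 1.64 and 0.966 FPKM at day 1, 2.40, 2.21 and 1.67 at day 7 and 1.77, 2.25 and 2.51 at day 30. The wild type days overlapped, and the change from day 1 to day 30 was -0.22 ± 0.21 (SE), adjusted p = 0.371 (limma). In knockout libraries day 30 lay above day 1, by 0.51 ± 0.21 (SE), adjusted p = 0.0426 (limma), a call that was lost under 6 of 14 alternatives, where the adjusted p ranged from 0.0102 to 0.131. Leaving out knockout day 1 replicate 1 or 3, or day 30 replicate 2 or 3, ended it, with adjusted p-values of 0.105, 0.131, 0.0909 and 0.130 (limma). The difference between genotypes in this change is part of the interaction test below, which Ccne2 did not pass.

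**Figure D3:**
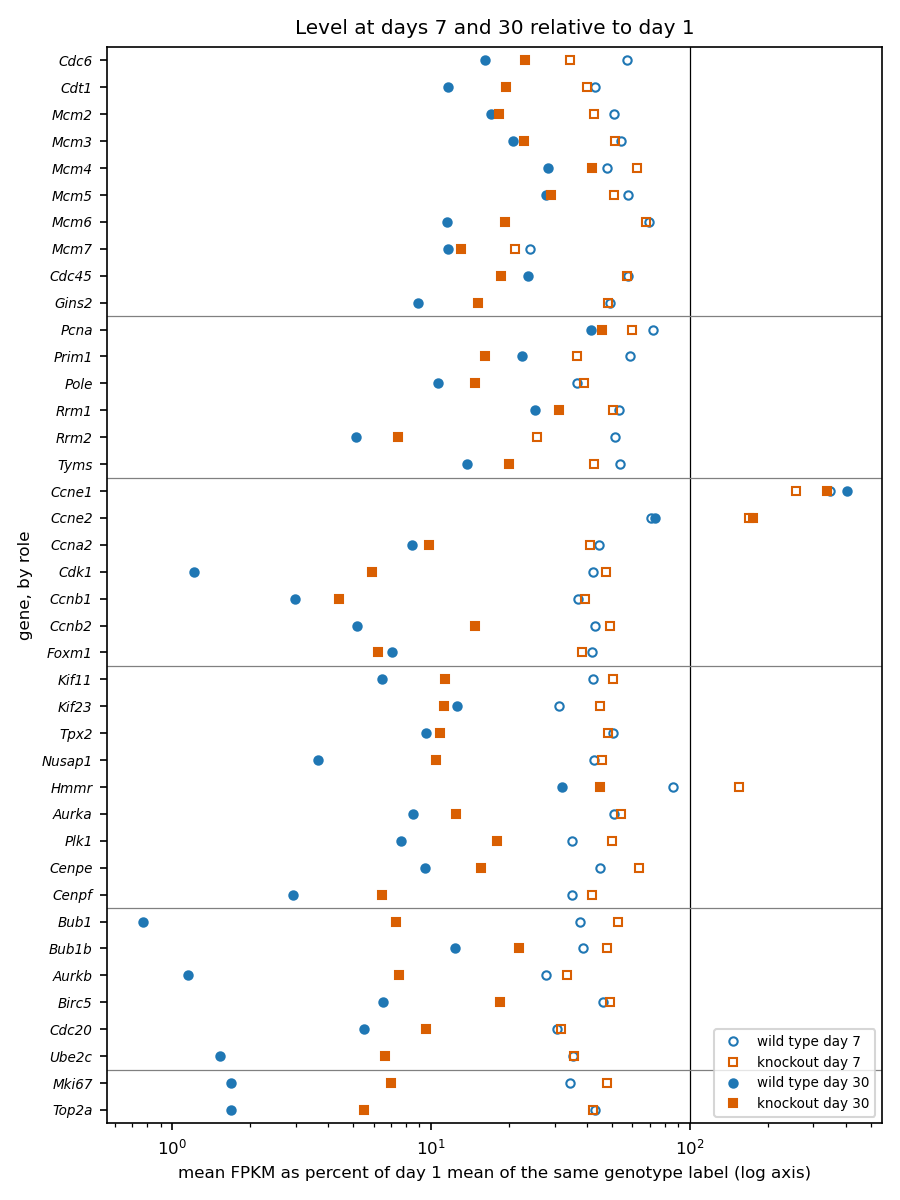
Mean FPKM at day 7 (open symbols) and day 30 (filled symbols) as a percent of the day 1 mean of the same genotype label, on a log axis, for each member in role order, with wild type as blue circles and knockout as orange squares. Nearly all symbols lie left of the line at the day 1 level, the filled ones of the mitotic groups farthest left, and both genotypes of Ccne1 lie to the right.

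Promoter sequence was described mostly with words known from replication and mitosis genes, so their shares among members are not an independent result. RefSeq promoters of assembly GRCm38.p6, from 250 bases before to 50 after each start, were at hand for 32 of the 40 members, and for 27025 genes in all. The words searched, on both strands, were the cell cycle homology region TTTGAA, the box CCAAT bound by NF-Y, the E2F words TTTGGCGC, TTTCCCGC and GGCGGGAA, of which the last 2 can overlap, and the TATA box. TTTGAA occurred in 13 of 18 mitotic promoters and 2 of 13 replication promoters, against 18.1% of all promoters. CCAAT occurred in 16 of 18 and 10 of 13, against 37.9%. An E2F word occurred in 0 of 18 mitotic and 8 of 13 replication promoters, against 3.31%. Both TTTGAA and CCAAT stood in 13 of 18 mitotic and 2 of 13 replication promoters, against 7.12%. The TATA box, searched as TATAAA, occurred in 0 of 18 and 1 of 13, against 14.2%. A match describes the letters and is not a site in use.

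The promoter of the member with the most negative wild type change on the log2(FPKM + 1) scale in each role group is shown, with that of Ccne1, chosen after its values were seen because it rose. Positions are Mcm7 at chr5:138171834-138172133 (minus strand), Rrm2 at chr12:24708004-24708303 (plus strand), Ccnb1 at chr13:100786437-100786736 (minus strand), Nusap1 at chr2:119618048-119618347 (plus strand), Ube2c at chr2:164769679-164769978 (plus strand), Top2a at chr11:99024140-99024439 (minus strand) and Ccne1 at chr7:38107441-38107740 (minus strand). Capitals mark every searched word other than the TATA box in either orientation, in the strand of the gene. Mcm7 has 2 starts in the RefSeq table, and the one that stands first there is shown and counted. The window of the other holds 1 CCAAT and no E2F word.
Mcm7: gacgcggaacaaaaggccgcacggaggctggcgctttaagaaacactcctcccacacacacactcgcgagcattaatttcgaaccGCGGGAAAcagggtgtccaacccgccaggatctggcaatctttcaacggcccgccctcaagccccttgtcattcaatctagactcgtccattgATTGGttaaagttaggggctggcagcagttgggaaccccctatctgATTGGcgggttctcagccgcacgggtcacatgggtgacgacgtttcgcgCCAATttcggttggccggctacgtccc
Rrm2: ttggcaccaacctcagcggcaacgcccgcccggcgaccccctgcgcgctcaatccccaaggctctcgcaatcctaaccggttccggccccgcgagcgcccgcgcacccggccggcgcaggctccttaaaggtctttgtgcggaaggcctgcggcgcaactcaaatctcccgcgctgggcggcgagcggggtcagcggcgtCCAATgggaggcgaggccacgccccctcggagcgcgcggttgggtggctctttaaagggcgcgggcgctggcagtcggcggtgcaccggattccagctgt
Ccnb1: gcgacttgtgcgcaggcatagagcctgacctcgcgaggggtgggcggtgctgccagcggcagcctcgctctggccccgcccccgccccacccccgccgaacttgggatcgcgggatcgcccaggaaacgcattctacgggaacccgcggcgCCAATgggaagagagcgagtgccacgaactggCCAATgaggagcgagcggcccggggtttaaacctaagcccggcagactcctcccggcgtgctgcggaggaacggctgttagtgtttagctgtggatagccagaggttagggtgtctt
Nusap1: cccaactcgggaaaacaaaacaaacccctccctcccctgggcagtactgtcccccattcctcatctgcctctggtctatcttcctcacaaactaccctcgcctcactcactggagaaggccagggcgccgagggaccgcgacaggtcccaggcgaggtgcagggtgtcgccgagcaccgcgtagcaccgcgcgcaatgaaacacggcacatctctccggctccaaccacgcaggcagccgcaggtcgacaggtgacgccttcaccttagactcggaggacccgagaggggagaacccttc
Ube2c: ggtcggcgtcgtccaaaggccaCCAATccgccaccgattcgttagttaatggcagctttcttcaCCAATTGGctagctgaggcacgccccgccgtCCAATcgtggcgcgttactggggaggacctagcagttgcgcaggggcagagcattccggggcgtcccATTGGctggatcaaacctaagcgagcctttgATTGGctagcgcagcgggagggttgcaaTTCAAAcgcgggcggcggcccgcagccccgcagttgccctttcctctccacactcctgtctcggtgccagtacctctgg
Top2a: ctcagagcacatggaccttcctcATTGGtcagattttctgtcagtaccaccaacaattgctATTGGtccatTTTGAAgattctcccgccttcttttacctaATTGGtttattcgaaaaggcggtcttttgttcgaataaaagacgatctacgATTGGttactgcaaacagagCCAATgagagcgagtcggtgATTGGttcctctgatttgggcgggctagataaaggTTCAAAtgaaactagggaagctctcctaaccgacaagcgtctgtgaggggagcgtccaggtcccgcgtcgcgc
Ccne1: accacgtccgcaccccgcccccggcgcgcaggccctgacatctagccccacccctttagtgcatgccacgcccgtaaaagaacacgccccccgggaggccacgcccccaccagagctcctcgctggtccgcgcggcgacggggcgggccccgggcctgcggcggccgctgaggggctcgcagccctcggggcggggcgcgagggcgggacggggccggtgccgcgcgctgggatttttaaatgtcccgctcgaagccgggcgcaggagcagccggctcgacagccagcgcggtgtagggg
Top2a and Ube2c each hold several CCAAT boxes upstream of a TTCAAA, which is TTTGAA read on the other strand. The TTCAAA begins at position -23 in Top2a and -29 in Ube2c, counted from the start. Top2a also holds TTTGAA at -179. Mcm7 holds GCGGGAAA, an E2F word read on the other strand, and Rrm2 and Ccnb1 hold CCAAT alone. Nusap1, which fell, and Ccne1, which rose, hold none of the words in this window.

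Other genes of the same processes also fell. Of 36 tested genes of a list of other replication genes, 31 were lower and 0 higher at day 30 than at day 1 in wild type. The shares of all genes were 41.2% and 26.4%, and the median of the list was -0.85. The largest falls were in Chaf1b, a histone chaperone, at -2.76 ± 0.22 (SE), adjusted p = 1.77e-08, Rfc3, a clamp loader subunit, at -2.24, and Dbf4, the activator of Cdc7, at -2.20 (limma). Without wild type day 1 replicate 3 the calls on Gmnn and Rfc2 were lost, with adjusted p-values of 0.0603 and 0.0693 (limma). Of 46 tested genes of other mitotic genes 44 were lower and 2 higher, beside the same shares of all genes, with a median of -1.31. Cks1b, a Cdk-binding protein, changed by -2.69 ± 0.17 (SE), adjusted p = 1.36e-09, Pbk, a mitotic kinase, by -2.60 and Cks2 by -2.48 (limma). The 2 that rose were Pttg1 (securin), at 1.50, and Wee1, a Cdk1 inhibitor, at 1.01.

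Among genes that hold cells in or out of G1 both directions occurred in wild type. From day 1 to day 30 in wild type, 5 of 8 tested G1 cyclins and kinases were lower and 1 higher, against 41.2% and 26.4% of all genes, with Cdk4 at -2.34 ± 0.19 (SE), adjusted p = 2.16e-08 and Cdk6 at -1.08 (limma). Cdk2 was at -1.17, and at -0.69 without wild type day 1 replicate 3. Without that library Ccnd3 went from -0.61 ± 0.25 (SE), adjusted p = 0.0401 to -0.16, adjusted p = 0.247 (limma), so its call was lost. Cyclin D1, Ccnd1, was the one that rose in wild type, at 0.95, while in knockout it was at 0.39 ± 0.21 (SE), adjusted p = 0.104 (limma). Of 13 tested inhibitors of the cell cycle 7 were lower and 1 higher in wild type, beside the same shares of all genes, with Cdkn1c (p57) at -3.05 ± 0.39 (SE), adjusted p = 3.24e-06, Btg1 at -1.72 and Cdkn1b (p27) at -1.37 (limma). Without wild type day 1 replicate 3 Cdkn1c was at -2.54 and Btg1 at -1.26, both still past the test. Cdkn2d (p19) rose in wild type, at 0.59, and was at 0.20 ± 0.18 (SE), adjusted p = 0.343 in knockout (limma). In knockout libraries 5 of the 8 and 8 of the 13 were lower and 0 higher, against 39.8% and 26.6% of all genes. No gene of these 4 lists passed the test between knockout and wild type on any day.

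Markers of cell types that can divide differed in direction with age. Radial glia markers summed to 440 to 876 FPKM at day 1, 493 to 979.5 at day 7 and 217 to 252 at day 30. Of the 8, 4 were lower and 2 higher at day 30 than at day 1 in wild type, against 41.2% and 26.4% of all genes (limma, adjusted p under 0.05). In knockout 5 were lower and 2 higher, against 39.8% and 26.6%. Interneuron progenitor markers summed to 26.5 to 92.9 FPKM at day 1 and 7.78 to 9.89 at day 30. All 5 tested were lower in both genotypes, beside the same shares of all genes. Of 5 tested intermediate progenitor markers 4 were lower and 1 higher in wild type, and 5 were lower in knockout. Oligodendrocyte precursor markers summed to 42.8 to 66.8 FPKM at day 1 and 70.0 to 111 at day 30, and microglia markers to 16.8 to 37.5 and 117 to 156. Their part in the fall of the members was not tested. Scaling by the median ratio moved the median change of all genes from day 1 to day 30 by over 0.1, to 0.03 in wild type and 0.06 in knockout, with members at -1.51 and -1.28 and the same numbers of members called lower.

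No member passed the test between knockout and wild type on any day. At day 1, 0 of 39 members passed the test, against 0.517% of all genes (limma), while 8 members and 2901 of 13347 genes had an unadjusted p under 0.05. The members' median change was -0.18 beside 0.02 for all genes, and 30 of 39 were lower in knockout libraries. By role, all 17 spindle, checkpoint and marker genes were negative, although Tpx2 and Bub1 lay next to 0, and 4 of 6 DNA synthesis genes were positive.

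Of the 3 members with the smallest p at day 1, Bub1b, a checkpoint kinase, measured 3.72, 3.69 and 5.01 FPKM in wild type and 3.27, 2.40 and 2.56 in knockout. Plk1, a kinase of mitotic entry and spindle poles, measured 3.95, 3.62 and 4.50 and 3.56, 2.36 and 2.44 FPKM. Rrm2 measured 11.8, 12.1 and 12.3 and 19.9, 14.6 and 16.0 FPKM. In each of the 3 the genotypes did not overlap, with Bub1b and Plk1 lower and Rrm2 higher in knockout. The changes were -0.45 ± 0.15 (SE), adjusted p = 0.121 for Bub1b, -0.42 ± 0.15 (SE), adjusted p = 0.141 for Plk1, and 0.44 ± 0.16 (SE), adjusted p = 0.143 for Rrm2 (limma). Prim1 was the other member without overlap, higher in knockout. These are 2 of 40 higher and 2 lower, against 8.92% and 5.87% of all genes tested.

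Sums of some marker lists of other cells differed between the genotype labels at day 1, although of these lists 1 oligodendrocyte precursor marker alone passed the test. In other lists, 1 of 5 tested intermediate progenitor markers and 1 of 8 cortical excitatory neuron markers were called higher in knockout. Of all genes 0.517% passed at day 1. The 8 radial glia markers summed to 440 to 503 FPKM in wild type and 562 to 876 in knockout, and the 6 oligodendrocyte precursor markers to 42.8 to 49.9 and 57.3 to 66.8, and neither pair of ranges overlapped. The 6 erythroid markers summed to 239 to 546 and 158 to 257, which overlap. All 5 tested interneuron progenitor markers were positive in knockout against wild type, and all 6 endothelial, all 6 meningeal and all 5 tested erythroid markers negative, none of them past the test. Wild type replicate 3, with the salivary gland and brown fat transcripts, held the highest endothelial, meningeal and erythroid sums, 122, 424 and 546 FPKM. Endothelial sums were 49.2 and 57.4 FPKM in wild type replicates 1 and 2, and 45.9 to 63.8 in knockout. Meningeal sums were 36.7 and 64.5 FPKM there, and 38.3 to 46.2 in knockout. The part of these lists in the day 1 values was not tested.

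The day 1 difference depended on which libraries were kept. Knockout replicate 1 was the highest of its group in 33 of 40 members, and without it the median was -0.30. Without knockout replicate 2 or 3 it was -0.10 in each case, with 24 and 29 of 39 negative. Over the 15 members that reached 5 FPKM in 3 libraries it was also -0.10. Wild type replicate 3 was the highest of the day in 12 of the 22 mitotic members, and without it the median was -0.12, with 26 of 39 negative. The day 1 libraries differed in sex-linked transcripts. Xist was at 157, 39.4 and 23.8 FPKM in wild type replicates 2 and 3 and knockout replicate 3, where the Y-linked Ddx3y was at 0.0309, 11.7 and 2.77 FPKM. The other 3 held Xist at 0.0273 to 0.0650 FPKM and Ddx3y at 12.9 to 20.5 FPKM. Without wild type replicate 2 the median was -0.30, and 1523 genes passed in place of 69 of 13347. Of 39 members 3 passed, a smaller share than that of all genes. They were Ccne2, Cdc20 and Cdt1, the licensing factor, all lower in knockout.

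At day 7, 0 of 39 members passed, against 0.00749% of all genes (limma), with 1 member and 470 genes at an unadjusted p under 0.05. The median was -0.08 beside -0.01 for all genes, and 29 of 39 were negative. Rrm2 measured 5.26, 5.29 and 8.12 FPKM in wild type and 4.19, 3.67 and 5.10 in knockout. The knockout values lay below, with a change of -0.43 ± 0.16 (SE), adjusted p = 1.00 (limma). Cdt1 and Bub1, the next by p, changed by -0.29 ± 0.16 (SE), adjusted p = 1.00, and 0.18 ± 0.12 (SE), adjusted p = 1.00 (limma). Of the 40, Cdc6, Cdt1, Mcm6, Rrm2 and Ccna2 lay lower in knockout without overlap and 0 lay higher, against 10.9% and 9.74% of all genes.

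Wild type replicate 3 was the highest day 7 library in 33 of 40 members. It also held radial glia markers at a sum of 979.5 FPKM, against 493 to 665 in the other 5, and olfactory bulb markers at 48.4 FPKM, against 9.97 to 37.2. Oligodendrocyte precursor markers summed to 80.9 to 92.0 FPKM in wild type and 94.1 to 102 in knockout at day 7, and microglia markers to 42.7 to 59.1 and 61.3 to 88.0, and their part was not tested. Without wild type replicate 3 the median turned to 0.03, with 23 of 39 positive. It was -0.12 without wild type replicate 1 or 2 and -0.02 without knockout replicate 2. At day 7 the deviations of same-numbered libraries from their group means correlated at 0.333, 0.337 and 0.530. Differently numbered libraries were not compared, so whether the numbers pair libraries was not tested. A fit of the 6 day 7 libraries alone with the replicate number as a block was added after the data were seen. In it 500 of 13347 genes and 1 of 39 members passed, a smaller share of members than of all genes. Without the block, 9 genes and 0 members passed in the 6 libraries alone, and 1 gene and 0 members in the fit of all 18. The member that passed with the block was Rrm2, lower in knockout at -0.43 with an adjusted p of 0.0498 (limma).

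At day 30, 0 of 39 passed, against 0.0225% of all genes (limma), with 3 members and 479 genes at an unadjusted p under 0.05. The median was 0.11 beside 0.02, and 34 of 39 were higher in knockout libraries. In all, 9 members (23.1% of those tested) lay above wild type without overlap and 0 below, against 9.35% and 5.51% of all genes tested. They were Mcm6, Gins2, Pcna, Rrm2, Ccne1, Nusap1, Aurkb, Cdc20 and Ube2c.

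Rrm2 at day 30 measured 0.618, 0.601 and 0.643 FPKM in wild type and 0.905, 1.404 and 1.45 in knockout. Mcm6 measured 1.52, 1.04 and 0.757 and 1.54, 1.91 and 1.66 FPKM, and Pcna 21.2, 26.3 and 23.7 and 35.3, 27.6 and 28.7 FPKM. All knockout values lay above all wild type values in each of the 3. The changes were 0.47 ± 0.16 (SE), adjusted p = 1.00 for Rrm2, 0.37 ± 0.14 (SE), adjusted p = 1.00 for Mcm6, and 0.35 ± 0.13 (SE), adjusted p = 1.00 for Pcna (limma). Leaving out any 1 of the 6 libraries kept the median between 0.09 and 0.14. With 0.1 or 0.5 added to the FPKM in place of 1 it was 0.29 and 0.17, with 12 and 5 members at an unadjusted p under 0.05 and 0 past the test, and over the 15 members that reached 5 FPKM in 3 libraries it was 0.18. Wild type replicate 2 was the day 30 library with Xist above 0.0254 FPKM, at 31.5, and its Ddx3y was 5.05 FPKM. The highest sums of several marker lists also lay in knockout day 30 libraries, with oligodendrocyte precursor markers at 111 FPKM in replicate 2 (70.0 to 84.5 in the other 5), and erythroid and meningeal markers at 2012 and 160 FPKM in replicate 3. Their part in the result was not tested.

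**Figure D4:**
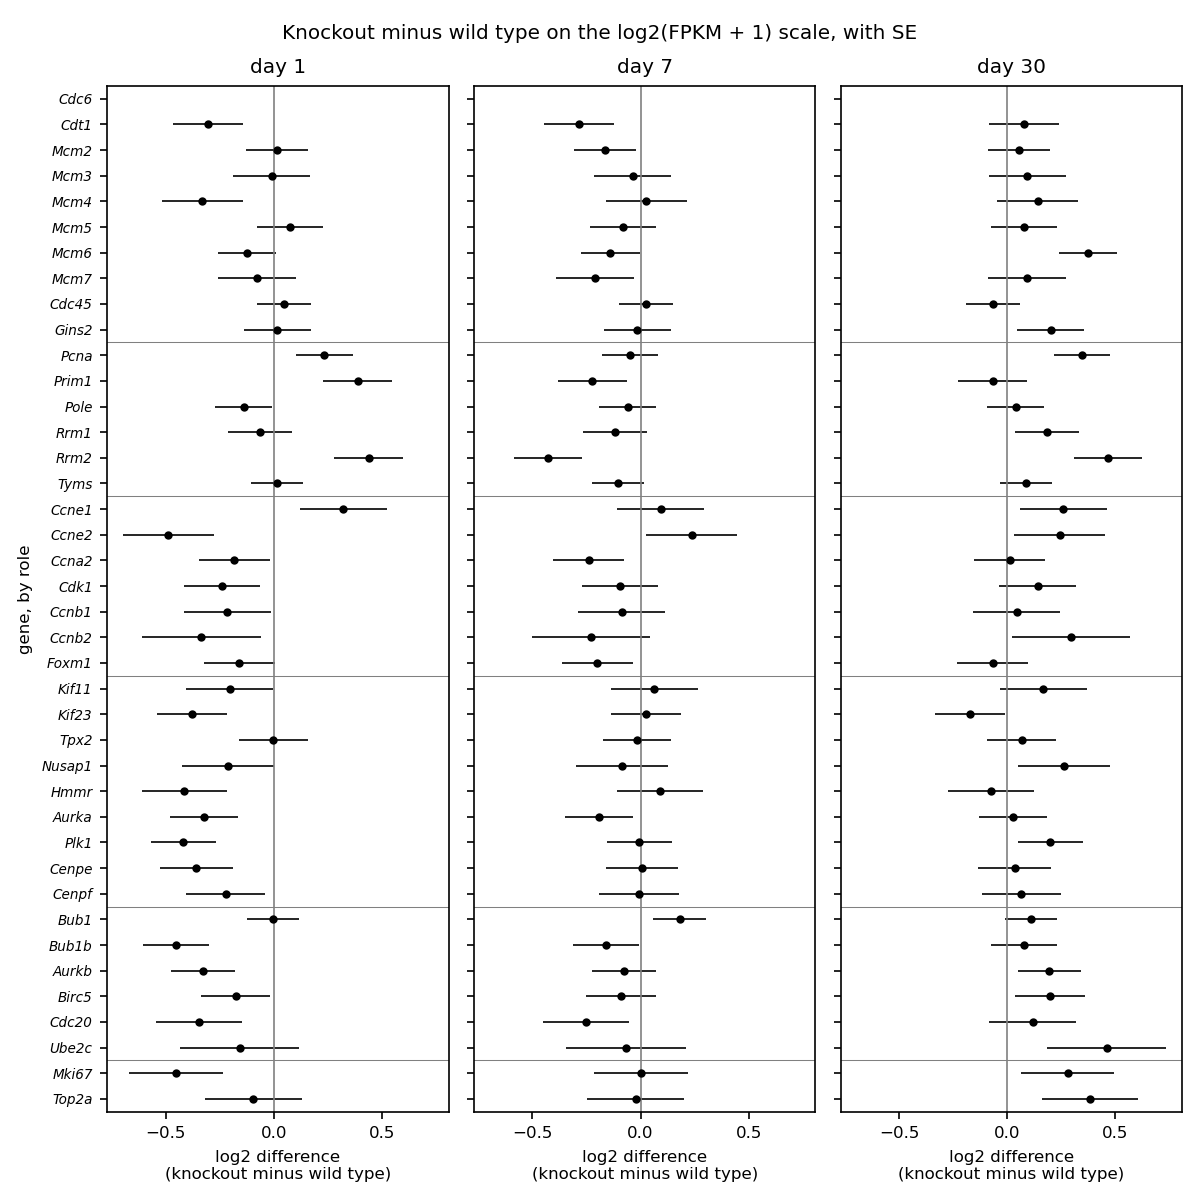
Knockout minus wild type difference of each tested member at days 1, 7 and 30 on the log2(FPKM + 1) scale, with members in role order and horizontal bars of 1 SE from limma. Left of 0 lie 30 of 39 points at day 1 and 29 at day 7, while 34 lie right of it at day 30, and no member passed the threshold.

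Averaged over the 3 days, 0 of 39 members passed, against 0.0974% of all genes (limma). The members with the smallest p were Pcna, at 0.18 ± 0.08 (SE), adjusted p = 0.444, Bub1b, at -0.18 ± 0.09 (SE), adjusted p = 0.522, and Ccne1, at 0.22 ± 0.12 (SE), adjusted p = 0.552 (limma). The genotype by day interaction called 0 of 39 members, against 0.0150% of all genes. Rrm2 had the smallest p of the members in it, 0.00131, with an adjusted p of 0.527, followed by Mcm6 with 0.527 and Plk1 with 0.527 (limma, moderated F test). A p that misses the threshold does not show that the genotypes were alike.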

How the data were processed

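RNA of 18 mouse cerebral cortex libraries was sequenced. The authors deposited 1 table of FPKM for 28852 genes, 1 column per library, and no columns were combined here. Per the submitters' processing notes the tools were Bowtie2, RSEM 1.3.1 and DESeq2 1.4.5 with build GRCm39, with no role or order given. FPKM depends on the library total, so abundant foreign transcripts lower the rest, and absolute depth is unknown. Groups came from the sample titles. Members, lists and promoter words were chosen with earlier results of these data known. Members were named by a rule: cycling markers, the 2 most and 1 least negative per role, and members past the threshold or the 3 smallest p.

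The 13347 genes that reached 1 FPKM in 3 or more libraries were tested as log2(FPKM + 1) with limma 3.58.1 in R 4.3.3, as means of 6 groups with the mean-variance trend, two-sided, Benjamini-Hochberg adjusted over 13347 genes, threshold 0.05. Fits were tested on simulated data. Alternatives changed the pseudocount, filter, scaling, trend, groups fitted, replicate block and each library left out. Deviations of same-numbered libraries correlated at 0.333, 0.337 and 0.530 at day 7 and at -0.336 to 0.131 at days 1 and 30. Differently numbered libraries were not compared, so these values do not show that the numbers pair libraries. Exact permutation of 3 against 3 libraries cannot go below p = 0.1 and was not used. Promoters came from RefSeq, GRCm38.p6, another build than the FPKM table's. They matched by symbol for 32 of 40 members.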

Additional observations from a re-analysis of the deposited data

Results flagged for a closer look

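Rrm2 and Mcm6 lay apart between genotypes in opposite directions on different days. The mean FPKM difference of Rrm2, knockout minus wild type, was 4.76 at day 1, -1.90 at day 7 and 0.633 at day 30, without overlap of the 3 against 3 libraries on any day. That of Mcm6 was -0.704 at day 7 and 0.596 at day 30, again without overlap but by narrow margins. At day 7 its highest knockout value was 6.30 FPKM and its lowest wild type value 6.31. At day 30 its lowest knockout value was 1.54 FPKM and its highest wild type value 1.52. The genotype by day interaction did not call either, with an adjusted p of 0.527 for Rrm2 and 0.527 for Mcm6 (limma, moderated F test). These directions were not tested on other libraries.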

How the results depend on the processing

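Of 25 counts of members past the threshold, most stayed within 1.5 times under the alternatives. With FPKM of at least 5 required in 3 libraries, 15 members were tested and the lower calls fell to 14 in wild type for day 7 against day 1, day 30 against day 7 and day 30 against day 1, and to 14, 13 and 14 in knockout, with fewer genes tested. Higher calls in knockout were 2 for day 7 against day 1 under median ratio scaling or the 2 groups alone. Without 1 library each they ran from 1 to 2. For day 30 against day 1 they were 1 under that filter, with no filter, or with the replicate block, and ran from 1 to 2 without 1 library each. Lower calls in knockout against wild type at day 1 ran from 0 to 3 without 1 library each, and were 1 at day 7 with the replicate block on day 7 libraries alone, chosen after seeing the data. The block over all libraries changed no other call on a genotype comparison. Hmmr reversed from day 1 to day 7 in wild type without wild type day 1 replicate 3, and its change ran from -0.26 to 0.12 without 1 library each. The cause of these shifts was not tested, apart from the smaller number of members under the stricter filter. Depth limits the day 30 values, most of them under 1 FPKM.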
